A study of Mus musculus with 2 samples.

Results

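The 10 genes described here encode proteins with which macrophages recognise and take up dying cells. They are the phosphatidylserine receptors Timd4 and Stab1, the TAM receptor kinases Mertk, Axl and Tyro3, the bridging proteins Mfge8, Gas6 and Pros1, and the engulfment adaptors Elmo1 and Gulp1. They were chosen by name, and each of the 10 symbols was found on 1 row of the 16263 genes listed in both libraries. RNA sequencing had been done on bone marrow-derived macrophages of mice labelled SIRPalpha-/- (SIRPα-KO) and of wild-type (WT) mice, both given as C57BL/6. Marrow cells had been grown for 5 days with M-CSF, the macrophage growth factor, and then treated for 6 h with IFNγ at 20 ng/ml and LPS at 100 ng/ml, which drive the classical inflammatory (M1) state, with the reagent that the labels name mCD47.ex also present. Both groups received all of these agents, so neither is untreated. RNA came from the combined cells of 5 mice of a genotype, which leaves 1 library per genotype, no replicate check of a difference and no p-value. The sources used here give neither the age of the mice nor the targeted allele.

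Dying cells expose the lipid phosphatidylserine on their outer surface. Macrophages bind it directly through receptors such as TIM-4, or indirectly through secreted bridging proteins that hold the lipid at one end and a macrophage receptor at the other. The TAM kinases, named after their members, bind the bridging proteins Gas6 and protein S, promote uptake and restrain inflammatory signalling, while MFG-E8 links the lipid to αv integrins. Adaptors such as ELMO1 then pass the signal to Rac and the actin skeleton. SIRPα acts on the opposite side, as an inhibitory receptor that binds CD47 on other cells and holds back their uptake.

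Within these 10 genes, the libraries differed most in the direct receptor Timd4 and in the bridging proteins Mfge8 and Pros1. Timd4 and Pros1 were at least 2-fold higher in SIRPα-KO and Mfge8 at least 2-fold lower. Mertk, Axl, Stab1, Gas6 and Elmo1 differed by less than 2-fold, and Tyro3 and Gulp1 were under the minimum level. Levels are in FPKM, that is, fragments per kilobase of transcript scaled to library size, a unit inferred from the values. Ratios are log2 of SIRPα-KO over WT after adding 1 FPKM, a scale that understates the difference of low genes, and a gene was kept where 1 library had at least 1 FPKM. Of the 10 members, 8 were kept, each of them above 1 FPKM in both libraries. Of these 8, 2 were called higher and 1 lower at 2-fold, together 37.5%, against 7.73% of the 10092 kept genes (3.43% higher and 4.3% lower). The members had been picked with earlier results of these data known, so this count is a description.

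**Figure D1:**
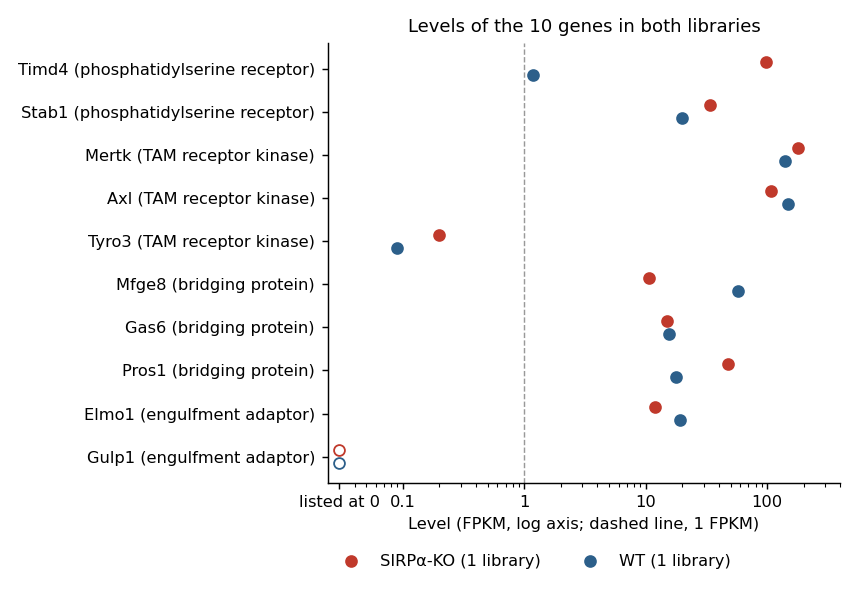
Level of each of the 10 genes in FPKM (log axis) in the SIRPα-KO library (red) and the WT library (blue), 1 point per library and no error bar because each genotype is 1 library. Open points mark a gene listed at 0. Timd4 lay at 98.2 FPKM in SIRPα-KO against 1.18 FPKM in WT, and the order of Mfge8 and Pros1 differed between the libraries.

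Both libraries held about 11000000 reads, as estimated from the steps between low values. At that depth a value can be turned into an approximate number of reads, and the intervals below are 95% exact (Clopper-Pearson) intervals of the ratio of these reads. They cover counting error only and not the difference between cultures or mice. Sirpa, the targeted gene, was at 71.5 FPKM in SIRPα-KO and 153.9 FPKM in WT, so its transcript was lower but present in the library labelled as the knockout, and the directions given here rest on that label. Macrophage markers were abundant in both libraries, with Lyz2 at 7208 and Mpeg1 at 1137 FPKM in SIRPα-KO against 7106 and 1056 FPKM in WT. The summed level of 7 marker lists of other cell types lay between 2.51 and 203 FPKM in SIRPα-KO and between 4.41 and 427 FPKM in WT, with the neutrophil list the highest in each. The female-specific RNA Xist was at 0.91 FPKM in SIRPα-KO and 47.5 FPKM in WT, and 4 Y-linked genes were at 2.52 to 21.4 FPKM in SIRPα-KO and 0 to 0.05 FPKM in WT, so that genotype and the sex of the mice cannot be told apart. Ribosomal RNA genes took 0.0426% of all FPKM in SIRPα-KO and 0.359% in WT, and the nuclear RNA Malat1, named after its value was seen, was at 32.9 FPKM in SIRPα-KO and 83.7 FPKM in WT. Another nuclear RNA, Neat1, went the other way, at 145.7 FPKM in SIRPα-KO and 123 FPKM in WT. Of 8 nuclear RNA and control genes Malat1 was the only one past 2-fold, 12.5% beside 7.73% of all kept genes. The part of sex and of RNA composition in the results below was not tested.

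The windows upstream of Timd4, Pros1 and Mfge8 are shown because these are the members past 2-fold. Each window holds the 250 bases before the annotated start in RefSeq (GRCm38.p6), a later build than the mm9 that the submitters' processing notes name, and was matched by gene number. They were searched on both strands for shortened core motifs, namely GAAANNGAA (ISRE, bound by interferon-activated factors), GGAANNGAA (EICE, bound by PU.1 with an IRF), GGANTTTCC (NF-κB), TGANTCA (AP-1), GAGGAAGT (PU.1 alone) and GGGGCGGGG (GC box). Capitals mark the matches, and the run in the Timd4 window is an ISRE and an EICE match that overlap.
Timd4, chr11:46810549-46810798, plus strand: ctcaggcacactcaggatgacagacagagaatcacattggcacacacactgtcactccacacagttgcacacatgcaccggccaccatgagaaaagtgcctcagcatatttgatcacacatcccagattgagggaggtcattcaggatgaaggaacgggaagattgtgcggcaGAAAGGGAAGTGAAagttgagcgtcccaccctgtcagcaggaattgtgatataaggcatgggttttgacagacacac
Pros1, chr16:62854057-62854306, plus strand: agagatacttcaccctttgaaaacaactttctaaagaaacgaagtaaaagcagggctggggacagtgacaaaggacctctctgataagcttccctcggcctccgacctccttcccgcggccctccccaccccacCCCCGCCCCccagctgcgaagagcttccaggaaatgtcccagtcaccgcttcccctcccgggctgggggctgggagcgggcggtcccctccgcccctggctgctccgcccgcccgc
Mfge8, chr7:79149061-79149310, minus strand: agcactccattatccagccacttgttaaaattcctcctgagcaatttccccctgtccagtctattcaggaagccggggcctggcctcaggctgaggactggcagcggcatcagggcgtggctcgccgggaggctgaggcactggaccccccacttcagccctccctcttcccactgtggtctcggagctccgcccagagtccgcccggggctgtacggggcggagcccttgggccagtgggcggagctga
The Timd4 window held the ISRE match 77 to 69 bases and the EICE match 72 to 64 bases before the start, motifs found in 7.13% and 6.99% of all 32851 windows. The Pros1 window held a GC box 116 to 108 bases before the start, found in 10.4% of all windows. No searched motif was found in the Mfge8 window. The same motifs also stood in windows of members short of 2-fold or not kept, with an ISRE and an NF-κB match for Elmo1, an EICE match for Stab1, and a GC box each for Mertk, Gas6 and Gulp1. A match describes the letters and does not show binding, and binding was not measured in these cells.

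Timd4 encodes TIM-4, a receptor that binds phosphatidylserine directly and tethers the dying cell. Its level was 98.2 FPKM in SIRPα-KO, about 2348 reads, and 1.18 FPKM in WT, about 28 reads. Timd4 thus lay near the minimum level in the WT library, and above 92.1% of kept genes in SIRPα-KO. The log2 ratio was 5.51 (45.5-fold with 1 FPKM added), which ranked 2 among the 10092 kept genes, and the ratio of the reads themselves was 83.2 (57.7 to 126). With 0.1 FPKM added in place of 1 the log2 ratio was 6.26.

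Timd4 is known as a marker of macrophages resident in tissues, so the other markers of that kind are given beside it. The 8 others that were listed summed to 182 FPKM in SIRPα-KO and 161 FPKM in WT. Lyve1 was listed at 0 in both libraries, Clec4f at 0 in SIRPα-KO and 0.04 FPKM in WT, Vsig4 was at 0.13 FPKM in SIRPα-KO and 0.06 FPKM in WT, and Cd163 at 0.25 FPKM in SIRPα-KO and 0.15 FPKM in WT. Folr2, a folate receptor, was at 97.0 FPKM in SIRPα-KO and 58.2 FPKM in WT, and the mannose receptor Mrc1 at 50.9 FPKM in SIRPα-KO and 58.8 FPKM in WT. Cd5l, a secreted scavenger-receptor protein, was at 23.9 FPKM in SIRPα-KO and 40.7 FPKM in WT, a log2 ratio of -0.74. Spic, a transcription factor of red pulp macrophages, was at 9.55 FPKM in SIRPα-KO and 2.84 FPKM in WT, a log2 ratio of 1.46. Apart from Timd4, Spic was the only marker of the list called at 2-fold. In a mixed library, fewer cells of a type and less RNA per cell cannot be told apart, so whether few cells or many carried the Timd4 transcript was not measured.

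Timd4 lies in a cluster of related TIM genes on chromosome 11. The gene next to it, Havcr1, which encodes the phosphatidylserine receptor TIM-1, was at 4.53 FPKM in SIRPα-KO and 0.61 FPKM in WT, a log2 ratio of 1.78. Havcr2, which encodes the checkpoint receptor TIM-3, was at 0.58 FPKM in SIRPα-KO and 1.76 FPKM in WT, a log2 ratio of -0.80. Timd2 was at 0.24 FPKM in SIRPα-KO and listed at 0 in WT. Within the cluster the differences went both ways, and these 3 neighbours were at 4.53 FPKM or less in both libraries.

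Stab1 encodes stabilin-1, a large scavenger receptor that also binds phosphatidylserine. It was at 33.9 FPKM in SIRPα-KO and 19.7 FPKM in WT, a log2 ratio of 0.75 that is short of 2-fold. The read ratio was 1.72 (1.62 to 1.82). Timd4 was 2.90 times as abundant as Stab1 in SIRPα-KO, whereas Stab1 was 16.7 times as abundant as Timd4 in WT. Summed over both receptors the level was 132 FPKM in SIRPα-KO and 20.9 FPKM in WT.

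Mertk encodes MerTK, the TAM kinase most tied to the uptake of dying cells by macrophages. Its level was 178 FPKM in SIRPα-KO, the highest of the 10 genes there, and 139.6 FPKM in WT. Axl, whose product binds Gas6 and is known to be induced in macrophages by inflammatory stimuli, was at 107 FPKM in SIRPα-KO and 147 FPKM in WT, the highest of the 10 genes in WT. The log2 ratio was 0.35 for Mertk and -0.46 for Axl, and the read ratios were 1.27 (1.23 to 1.32) for Mertk and 0.724 (0.698 to 0.751) for Axl. Both were short of 2-fold and pointed in opposite directions.

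The summed level of the TAM kinases was close to equal, 285 FPKM in SIRPα-KO and 287 FPKM in WT. Mertk made up 62.5% of that sum in SIRPα-KO and 48.7% in WT, and Axl 37.4% in SIRPα-KO and 51.3% in WT. The order of the pair differed between the libraries, although the WT levels were near each other, with Mertk at 0.949 times Axl. Tyro3, the family member best known from neurons, was at 0.20 FPKM in SIRPα-KO, about 9 reads, and 0.09 FPKM in WT, about 4 reads, and was not kept. Its read ratio of 2.22 had an interval from 0.626 to 9.97, so a difference was not detectable at this depth.

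**Figure D2:**
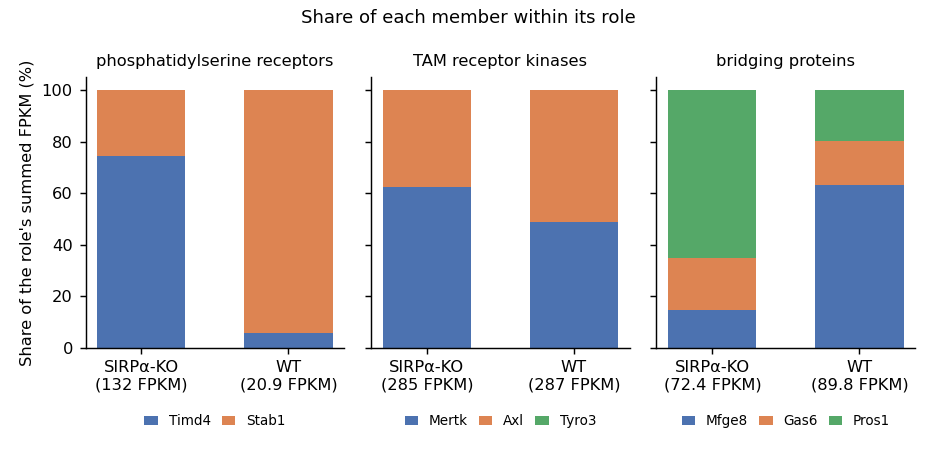
Share of each member in the summed FPKM of its role (%), with the SIRPα-KO library on the left and the WT library on the right of each panel and the sum under each bar. Mertk and Axl shared near-equal sums, while Pros1 made up 65.0% of the bridging sum in SIRPα-KO and Mfge8 63.3% in WT. Tyro3 is too low to be visible.

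The bridging proteins also differed in composition. Pros1 encodes protein S, a ligand of Mertk and Tyro3 that is also a blood anticoagulant. It was at 47.1 FPKM in SIRPα-KO, about 1711 reads, and 17.6 FPKM in WT, about 637 reads. Its log2 ratio was 1.37 and its read ratio 2.68 (2.44 to 2.94), a ratio below that of 174 other kept genes. Gas6, the ligand shared by all TAM kinases, was at 14.8 FPKM in SIRPα-KO and 15.4 FPKM in WT, a log2 ratio of -0.05. The interval of its read ratio, 0.839 to 1.104, included equality.

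Mfge8 encodes MFG-E8, which binds phosphatidylserine and αv integrins and so works apart from the TAM kinases. It was at 10.5 FPKM in SIRPα-KO, about 246 reads, and 56.9 FPKM in WT, about 1325 reads. The log2 ratio was -2.33 (5.02-fold lower with 1 FPKM added), and 44 of the kept genes had a lower one. The read ratio was 0.185 (0.161 to 0.212). The tables give 1 value for its 2 listed transcripts, so its long and short forms cannot be told apart.

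Summed over Mfge8, Gas6 and Pros1, the level was 72.4 FPKM in SIRPα-KO and 89.8 FPKM in WT. Pros1 made up 65.0% of the sum in SIRPα-KO and 19.6% in WT. Mfge8 made up 14.5% in SIRPα-KO and 63.3% in WT, and Gas6 20.4% in SIRPα-KO and 17.1% in WT. Pros1 was 4.47 times as abundant as Mfge8 in SIRPα-KO, and Mfge8 was 3.23 times as abundant as Pros1 in WT. The integrin chains that bind MFG-E8 were each short of 2-fold: Itgav was at 32.4 FPKM in SIRPα-KO and 40.0 FPKM in WT, Itgb3 at 4.69 FPKM in SIRPα-KO and 3.02 FPKM in WT, and Itgb5 at 11.02 FPKM in SIRPα-KO and 20.5 FPKM in WT. These 3 genes are named for their role after their values were seen.

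Of the engulfment adaptors, Elmo1, which with a DOCK protein activates Rac, was at 12.0 FPKM in SIRPα-KO and 19.1 FPKM in WT. Its log2 ratio of -0.63 was short of 2-fold, and its read ratio was 0.628 (0.572 to 0.691). Gulp1, an adaptor that binds the tails of receptors such as stabilin-1, was listed at 0 in both libraries, where 3 reads (counting error only) would have given 0.0869 FPKM in SIRPα-KO and 0.0872 FPKM in WT. Among the partners of Elmo1, named after their values were seen, Dock2 was at 32.0 FPKM in SIRPα-KO and 32.7 FPKM in WT, and Elmo2 at 14.9 FPKM in SIRPα-KO and 9.43 FPKM in WT. Dock1 was at 1.69 FPKM in SIRPα-KO and 1 FPKM in WT, and Rac1 at 171 FPKM in SIRPα-KO and 138 FPKM in WT. None of these partners reached 2-fold.

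**Figure D3:**
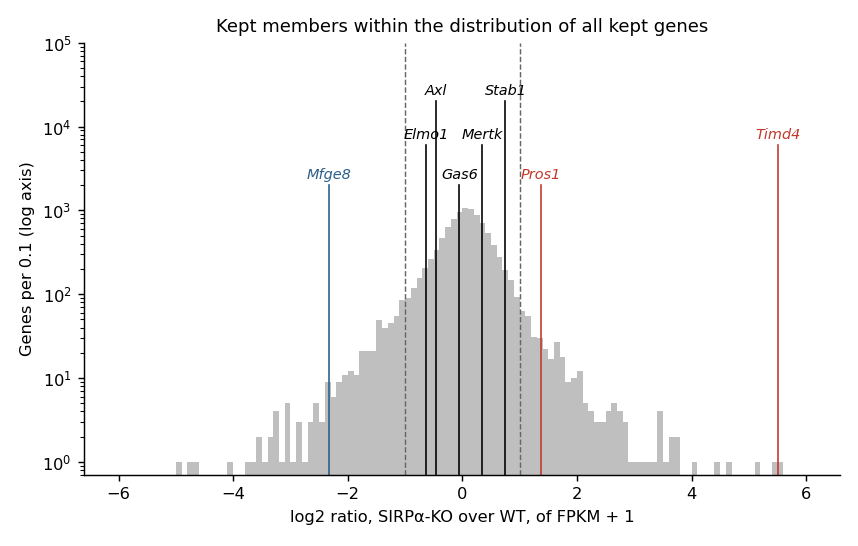
Distribution of the log2 ratio of SIRPα-KO over WT (FPKM + 1) over the 10092 kept genes (grey, log axis), with the 8 kept members as lines and dashed lines at 2-fold. Timd4 (5.51) and Pros1 (1.37) lie beyond 2-fold above and Mfge8 (-2.33) below, and the other 5 lie inside.

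The median log2 ratio of the 8 kept members was 0.15, beside 0.06 over all kept genes, since 4 members lay above 0 and 4 below. The median size of the ratio, without its sign, was 0.69 for the kept members and 0.28 over all kept genes. At 1.5-fold, 5 of the 8 kept members (62.5%) were called, with Stab1 and Elmo1 added, against 21.2% of kept genes. The order of levels within the group differed between the libraries: Timd4 ranked 3 of the 10 in SIRPα-KO and 8 in WT, and Mfge8 ranked 8 in SIRPα-KO and 3 in WT. With 1 library per genotype, whether neighbours in these orders differ beyond the spread between cultures could not be tested.

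In the sense direction of annotated transcripts, the members shared little sequence with other genes. The opposite strand and sequence outside annotated transcripts were not compared, and whether reads moved between genes was not tested. Of the 50-base words of the transcripts of Timd4, Mertk, Axl, Tyro3, Mfge8, Gas6 and Pros1, 0% occurred in a transcript of another gene, and for Stab1, Elmo1 and Gulp1 the share was 0.0460%, 0.0872% and 0.205%. Stab1, Gas6 and Elmo1 each overlap an exon of 1 gene on the other strand in the annotation. The use of strand in counting is not given in the sources used here, so reads from these partners cannot be told apart from their own.

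The members are part of a wider set of 108 genes of engulfment, listed by role. Outside the members, 96 of 98 such genes were listed and 85 were kept, of which 3 were called higher, 6 lower and 76 neither, together 10.6% beside the 7.73% of all kept genes. Their median log2 ratio was -0.11. Among the phosphatidylserine receptors, Cd300lf, an inhibitory and lipid-binding receptor of the myeloid lineage, was at 1.55 FPKM in SIRPα-KO and 15.2 FPKM in WT, a log2 ratio of -2.66. Havcr1 was the other called gene of that role outside the members. Among bridging proteins none was called besides Pros1 and Mfge8. The C1q chains, which also bridge dying cells to macrophages, were far more abundant than the members, with C1qb at 2397 FPKM in SIRPα-KO and 2140 FPKM in WT, a log2 ratio of 0.16, and are named after their values were seen.

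Downstream of the receptors the exchange factors for Rac stood in opposite directions. Vav3 was at 31.0 FPKM in SIRPα-KO and 6.23 FPKM in WT, a log2 ratio of 2.14, while Vav1, the form typical of blood cells, stood at 40.3 FPKM in SIRPα-KO and 85.6 FPKM in WT, a log2 ratio of -1.07. Of the 13 kept genes of that role the other 11 were not called. Of all 10092 kept genes 7.73% were called, 4421 lay below 0 and the median log2 ratio was 0.06. Of 11 integrins and tethering receptors 0 were called, 10 were below 0 and the median log2 ratio was -0.58. Cd14, the most abundant of these on average, was at 164 FPKM in SIRPα-KO and 290.2 FPKM in WT. Of the genes that shed TAM receptors or signal with them, 9 were kept, 0 were called and all 9 lay below 0, with a median of -0.35. The proteases that cut TAM receptors from the surface, Adam17 at 73.8 FPKM in SIRPα-KO and 91.3 FPKM in WT and Adam10 at 10.6 FPKM in SIRPα-KO and 19.3 FPKM in WT, belong to this role and are named after their values were seen.

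Of 15 genes of phagosome maturation and digestion 0 were called, and the protease Ctsd was at 981 FPKM in SIRPα-KO and 1303 FPKM in WT. Of 8 nuclear receptors and lipid exporters that act after uptake 1 was called, 12.5% beside 7.73% of all kept genes. That gene was Abca1, which exports cholesterol, at 2.10 FPKM in SIRPα-KO and 27.9 FPKM in WT, a log2 ratio of -3.22. Mertk, like Abca1, is known as a target of liver X receptors, and its log2 ratio of 0.35 was above 0 but short of 2-fold. Abcg1, another lipid exporter of this role, was at 51.5 FPKM in SIRPα-KO and 91.6 FPKM in WT, a log2 ratio of -0.82. The liver X receptors were near equality, with Nr1h3 at 17.9 FPKM in SIRPα-KO and 17.4 FPKM in WT and Nr1h2 at 35.8 FPKM in SIRPα-KO and 35.4 FPKM in WT. Abcg1 and these receptors are named after their values were seen, and a part of the receptors in these ratios was not tested.

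**Figure D4:**
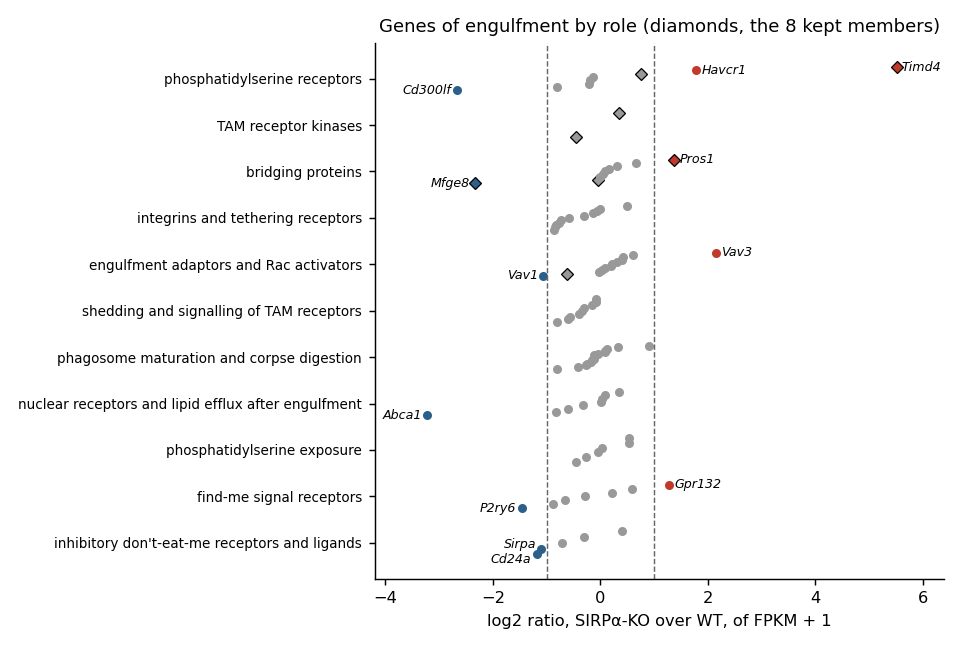
log2 ratio of SIRPα-KO over WT (FPKM + 1) for each kept gene of 11 engulfment roles, 1 point per gene, with diamonds for the 8 kept members, dashed lines at 2-fold and names for called genes (red higher, blue lower). The small vertical spread within a role only orders the genes. Called genes are scattered over 6 roles, while genes of the other 5 stay within 2-fold.

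Both Mertk and Tyro3 lie on chromosome 2, which also carries Sirpa. In gene order 10 kept genes lie between Mertk and Sirpa, and 88 between Tyro3 and Sirpa. Of the 20 kept genes on each side of Sirpa, Mertk among them, 1 was higher by 2-fold, 3 were lower and 36 were neither, together 10% beside 7.73% of all kept genes, and their median log2 ratio was 0.05. Mertk stood between Anapc1, at 8.64 FPKM in SIRPα-KO and 7 FPKM in WT, and Tmem87b, at 19.4 FPKM in SIRPα-KO and 10.8 FPKM in WT, with log2 ratios of 0.27 and 0.79, each with the same sign as its own. The called neighbours of Sirpa were Slc4a11 above and Gm14023, Il1a and Siglec1 below, and are named because they are few. How far sequence around the targeted gene differs between the genotypes is not given in the sources used here.

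**Figure D5:**
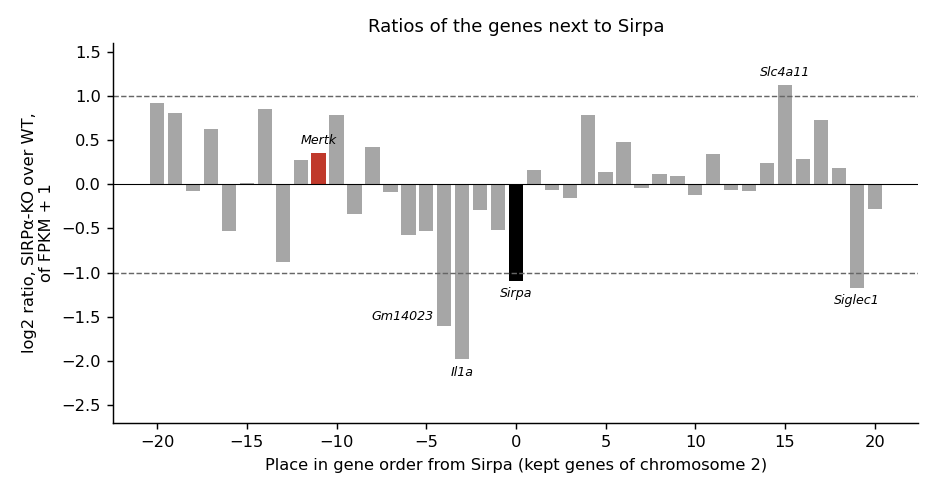
log2 ratio of SIRPα-KO over WT (FPKM + 1) of Sirpa (black) and the 20 kept genes on each side in gene order, with Mertk in red and dashed lines at 2-fold. Bars on both sides go both ways, and Mertk (0.35) lies 11 places from Sirpa.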

How the data were processed

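RNA sequencing values of 2 libraries were used, 1 of SIRPα-KO and 1 of WT macrophages. The authors deposited 1 table per library, and its deposited values were taken to be FPKM, because steps between low values scale with transcript length (75.4% of 731 low SIRPα-KO values and 76.0% of 708 low WT values came within 0.15 of whole reads, and 27.1% of SIRPα-KO and 26.7% of WT values with lengths shuffled) and because the sums differ (433460 in SIRPα-KO and 444294 in WT). The submitters' processing notes name mm9, R 3.3.3 and DESeq2 without a role, and no source used here gives the aligner or counter. Scaling by library size lets very abundant genes shift others.

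The ratio was computed with Python 3.11.15 and NumPy 2.4.6 as a difference of log2(FPKM + 1), over all genes at 1 FPKM or more in 1 library, with a call at 2-fold. The plan had allowed for read counts and used its form for normalized values. Of the gene numbers 16211 matched RefSeq (GRCm38), used for chromosome and gene order, and transcript lengths and words were taken from GENCODE M21. The rule for named genes gave the members, Sirpa, Cd47, the called or the most abundant gene of each role, up to 2 genes per cell type list and sex-linked genes. Other genes, among them the resident macrophage markers, TIM genes, integrins, partners of Elmo1, proteases, C1q, liver X receptors and neighbours, were added after their values were seen. The most abundant gene of 1 role and its values are not reported here. Members and lists were chosen with earlier results of these data known. Alternatives were another pseudocount, other filters, fold limits and scalings.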

Additional observations from a re-analysis of the deposited data

How the results depend on the processing

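No paired analysis was possible because each genotype is 1 library, and no library could be left out for the same reason. The ratios of the 8 kept members kept their sign with a pseudocount of 0.1 FPKM and under both other scalings, which scale every gene alike by -0.07 on the log2 scale, and the filters cannot alter a ratio. The counts of members called at 2-fold were unchanged by the pseudocount, filters and scalings that were tried. At a limit of 3-fold 1 member, Timd4, was higher and 1, Mfge8, was lower, and at 1.5-fold 3 were higher and 2 lower. Over all genes, a pseudocount of 0.1 FPKM gave 589 higher and 676 lower calls, against 346 and 434 with 1 FPKM. A 1.5-fold limit gave 1103 higher and 1032 lower, and a 3-fold limit 130 and 140. The wider engulfment list had medians between -0.18 and -0.08 and the genes next to Sirpa between -0.01 and 0.23. Median-of-ratios scaling put Mertk at 0.27 and Axl at -0.53. Depth limits Tyro3 and Gulp1, and the absence of replicates limits all ratios.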

Other observations

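Receptors for signals that draw macrophages towards dying cells also went both ways. Gpr132, a receptor for lysophospholipids and lactate, was at 59.8 FPKM in SIRPα-KO and 24.05 FPKM in WT, a log2 ratio of 1.28. P2ry6, a receptor for the nucleotide UDP, was at 31.6 FPKM in SIRPα-KO and 88.9 FPKM in WT, a log2 ratio of -1.46. Of the 7 kept genes of that role these 2 were called, 28.6% beside 7.73% of all kept genes, and the other 5 were short of 2-fold. Of 6 genes for the exposure of phosphatidylserine 0 were called, and the flippase subunit Tmem30a was at 69.4 FPKM in SIRPα-KO and 68.0 FPKM in WT. Among inhibitory receptors and ligands, Cd24a was the called gene besides Sirpa, at 1.63 FPKM in SIRPα-KO and 4.98 FPKM in WT, a log2 ratio of -1.19. Cd47, the ligand of SIRPα, was at 188 FPKM in SIRPα-KO and 142 FPKM in WT, a log2 ratio of 0.40.

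Of 8 kept neutrophil markers 5 were called lower in SIRPα-KO, beside 4.3% of all kept genes, while Cxcr2, at 11.7 FPKM in SIRPα-KO and 8.66 FPKM in WT, and Mpo, at 3.34 FPKM in SIRPα-KO and 2.38 FPKM in WT, were not called and lay above 0. The list had a summed level of 203 FPKM in SIRPα-KO and 427 FPKM in WT, led by S100a9 at 98.1 FPKM in SIRPα-KO and 202 FPKM in WT. Dendritic cell markers summed to 53.4 FPKM in SIRPα-KO and 46.6 FPKM in WT. Of 6 kept markers 2 were called higher and 1 lower, beside 3.43% higher and 4.3% lower of all kept genes. Ccr7, called higher, was at 23.8 FPKM in SIRPα-KO and 6.93 FPKM in WT. Itgax, called lower, was at 12.1 FPKM in SIRPα-KO and 27.7 FPKM in WT. Erythroid and megakaryocyte markers summed to 154 FPKM in SIRPα-KO and 41.8 FPKM in WT, nearly all of it from Pf4, a platelet chemokine, at 148 FPKM in SIRPα-KO and 37.3 FPKM in WT, while the erythroid factor Klf1 was listed at 0 in both libraries. Whether such cells carried part of the members' transcripts was not tested.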
